A study of Mus musculus with 96 samples.

Results

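Chromosomes 18 and 19 of the mouse were followed through every library of a single-nucleus genome study of KPC1199EGFP, a pancreatic cancer cell line. All bins whose chromosome code is 18 or 19 were taken, 178 bins of chromosome 18 and 119 of chromosome 19, together 297 of the 4906 bins of the table. They were read in 94 single nuclei and 2 bulk libraries. The first bin of each chromosome starts at 1 in mm9, and the second at 3664717 on chromosome 18 and at 3645595 on chromosome 19. The last bins start at 90105718 and 60830385. The median bin width was 483 kb on chromosome 18 and 469 kb on chromosome 19, so nothing shorter could be seen.

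The line has a C57BL/6 background and carries EGFP, and its cells grew attached to the dish and were taken at passage 9 without treatment. These properties were shared by all groups. Nuclei were sorted by DNA content, read from the DNA dye DAPI, into a 2N gate (47 nuclei), a 2N+ gate with more DNA (35 nuclei) and a 4N gate (12 nuclei), with 1 bulk library each of the 2N and the 2N+ gate. Nothing in the labels separates the nuclei into cultures. Each gate therefore counts as 1 sample, and no test between gates was run. The sample index in the titles runs through the gates in blocks, from 1 to 48 for 2N, 49 to 83 for 2N+ and 85 to 96 for 4N nuclei, so index and gate cannot be told apart. Errors below are SDs over nuclei, and intervals are exact Clopper-Pearson 95% intervals, which cover counting error only.

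A nucleus whose chromosomes are not all present in the same number is aneuploid, and such imbalance is usual in tumour cell lines. It arises when a chromosome goes to the wrong daughter cell in mitosis, which changes the dose of all its genes at once, or when a chromosome breaks, which changes a part of it. Chromosome 18 carries Smad4 and Smad2, which relay TGF-beta signals and of which Smad4 is often lost in pancreatic cancer, Smad7, an inhibitor of the same pathway, and Apc, which restrains beta-catenin. It also holds Dcc, a netrin receptor, Gata6, a transcription factor of pancreatic and gut cells, and Cdh2, an adhesion protein. Chromosome 19 carries the death receptor gene Fas, the kinase gene Jak2, Cd274, whose product PD-L1 restrains T cells, Men1, a tumour suppressor of endocrine cells, and Tcf7l2, which acts with beta-catenin. The RefSeq gene table of assembly GRCm38.p6 lists 510 protein-coding genes on chromosome 18, the fewest of chromosomes 1 to X, and 705 on chromosome 19. That is 2.87 genes per bin on chromosome 18 and 5.92 on chromosome 19. It places all 15 genes looked up for each chromosome there, but it is of another build than the bins, so no gene was placed in a bin and no gene has a copy value of its own.

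The deposited value of a bin is a ratio to the genome-wide level of the same library, flat over long stretches, and its read depth is unknown. Copies of a chromosome are the median ratio of its bins times a multiplier, found for each nucleus as the number that brings the autosomal ratios closest to whole numbers. The residual is the root of the mean squared distance that remained. It was above 0.15 copies in 8 of 94 nuclei, which were 2 2N, 3 2N+ and 3 4N nuclei. In 6 nuclei, 3 2N+ and 3 4N, the genome had more than 60 breakpoints, with each change of level counted whatever its size. Both sets stayed in the counts. Where leaving them out changed the count of a joint state by more than 1.5 times, the changed count stands beside the result or with the alternatives at the end.

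Chromosome 18 was the more variable of the pair in the 2N and 2N+ gates. The 2N nuclei divided into 21 of 47 with 2 copies (44.7%, 95% interval 30.2 to 59.9) and 26 with 3 copies (55.3%, 40.1 to 69.8). The values of the nuclei at 2 copies ran from 2.02 over a median of 2.08 to 2.16, and those at 3 copies from 2.70 over a median of 2.97 to 3.03. Among 35 2N+ nuclei, 6 had 2 copies (17.1%, 6.56 to 33.6), 25 had 3 (71.4%, 53.7 to 85.4) and 4 had 4 copies (11.4%, 3.20 to 26.7). The values at 2 copies ran from 1.99 over 2.08 to 2.16, those at 3 from 2.81 over 3.0 to 3.08, and those at 4 from 3.82 to 3.95. No nucleus of the 2N gate had 4 copies, 0 of 47, which allows a share of up to 6.38% if 3 nuclei are taken as the limit of a count of 0, and of 7.55% by the exact interval. The mean was 2.56 copies over 2N nuclei (SD 0.445, n = 47) and 2.94 over 2N+ nuclei (SD 0.492, n = 35). The 2N mean falls between the states and the 2N+ mean within the range of its nuclei at 3 copies. The ranges of both gates overlap from 2 to 3 copies.

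The states of chromosome 18 did not touch each other. Over the 2N and 2N+ gates the highest value called 2 copies was 2.16, in 2N+ nucleus 24, and the lowest called 3 copies was 2.70, in 2N nucleus 24. The residual of 2N nucleus 24 was 0.160, and some of its other chromosomes also lay off whole numbers. Chromosomes 1, 2, 15 and 16 were at 2.75, 2.79, 2.36 and 2.26 copies, while chromosomes 5, 12 and 19 were at 2.01, 2.06 and 2.96. The step from 3 to 4 copies was as clear, from 3.08 in 2N+ nucleus 13 to 3.82 in 2N+ nucleus 29.

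Chromosome 19 was far more uniform in both gates. Of 47 2N nuclei, 40 had 3 copies (85.1%, 71.7 to 93.8), with values from 2.83 over a median of 2.96 to 3.06. Another 6 had 4 copies (12.8%, 4.83 to 25.7), from 3.75 over 3.84 to 3.92, and 2N nucleus 5 had 2, with 2.03. Of 35 2N+ nuclei, 32 had 3 copies (91.4%, 76.9 to 98.2), from 2.88 over 2.98 to 3.06. It was at 4 copies in 2N+ nucleus 5 (3.91) and 2N+ nucleus 7 (3.85), and at 2 copies in 2N+ nucleus 12 (2.07). The mean was 3.06 copies over 2N nuclei (SD 0.340, n = 47) and 3.0 over 2N+ nuclei (SD 0.270, n = 35), closer together than the spread within either gate. Its states were apart too, with no value between 2.07 and 2.83 or between 3.06 and 3.75 in these gates.

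The joint states show how far both chromosomes varied together. Among 2N nuclei, 25 of 47 had 3 copies of both (53.2%, 38.1 to 67.9), and 15 had 2 copies of chromosome 18 beside 3 of chromosome 19 (31.9%, 19.1 to 47.1). A further 5 nuclei, 2N nuclei 6, 7, 11, 18 and 39, had 2 copies of chromosome 18 and 4 of chromosome 19 (10.6%, 3.55 to 23.1). The last 2 nuclei were alone in their state. 2N nucleus 5 had 2.02 copies of chromosome 18 and 2.03 of chromosome 19, and 2N nucleus 47 had 2.99 and 3.92. Among 2N+ nuclei, 25 of 35 had 3 copies of both (71.4%), and 4 nuclei, 20, 22, 24 and 25, had 2 copies of chromosome 18 and 3 of chromosome 19. 2N+ nuclei 22 and 24 had 91 and 87 breakpoints, and without the nuclei with more than 60 breakpoints this state was left with 2 nuclei. 2N+ nuclei 5 and 7 had 2 copies of chromosome 18 and 4 of chromosome 19. The reverse, 4 copies of chromosome 18 and 2 of chromosome 19, was found in 2N+ nucleus 12, with 3.86 and 2.07 copies. In 2N+ nuclei 17, 29 and 30 chromosome 18 was at 3.93, 3.82 and 3.95 copies while chromosome 19 stayed at 3.0, 2.96 and 3.03.

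**Figure D1:**
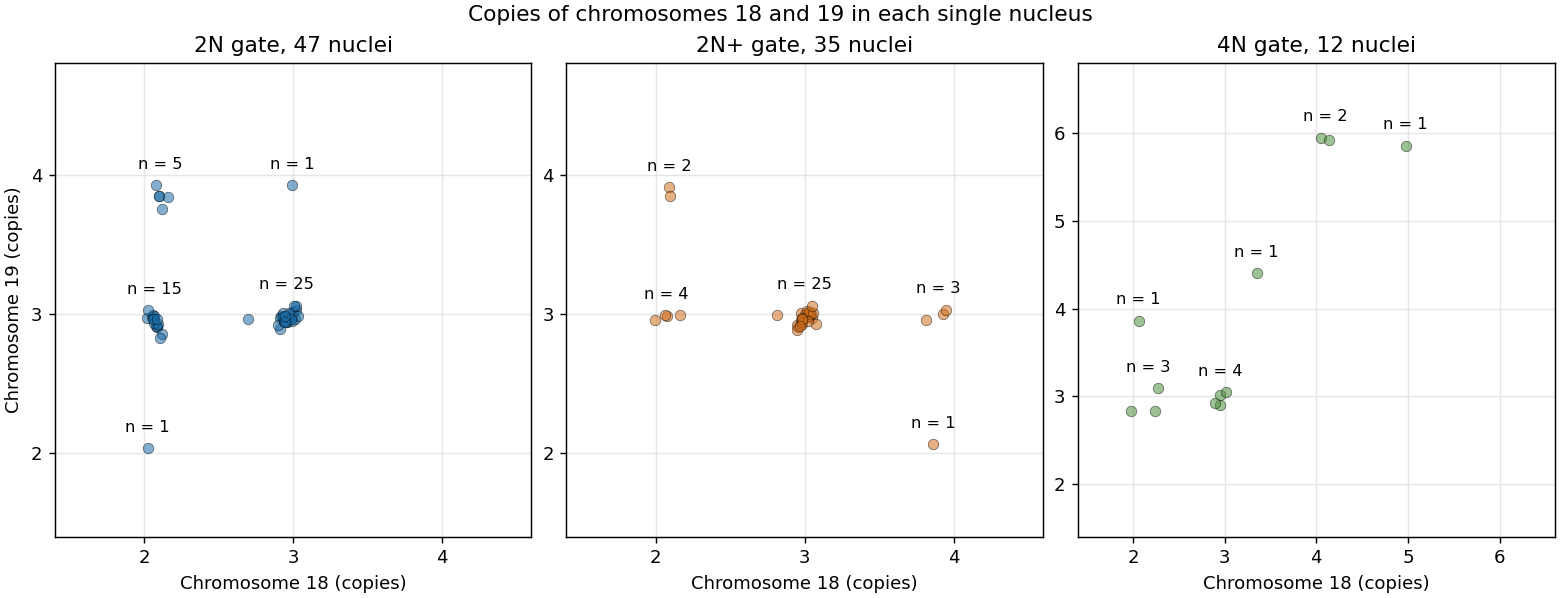
Copies of chromosome 18 (x axis) and of chromosome 19 (y axis) for each single nucleus, 1 panel per gate with its own number of nuclei, unrounded, each point being 1 nucleus. For 2N and 2N+ nuclei the points lie in separate groups near whole copies, with 25 nuclei of each gate near 3 copies of both. The upper left group, 2 copies of chromosome 18 and 4 of chromosome 19, holds 5 2N nuclei and 2 2N+ nuclei.

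Measured from 3 copies of each, the states were opposite in few nuclei. Chromosome 18 alone departed from 3 copies in 15 of the 47 2N nuclei (31.9%) and in 7 of the 35 2N+ nuclei (20%, 8.44 to 36.9). Both departed in opposite directions in 5 of 47 (10.6%) and in 3 of 35 nuclei (8.57%, 1.80 to 23.1). Chromosome 19 alone departed in 1 2N nucleus and 0 2N+ nuclei. Both departed in the same direction in 1 and 0 nuclei. The name of an inverse pair therefore describes a minority of nuclei, and the more frequent pattern was a varying chromosome 18 beside a chromosome 19 at 3 copies.

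In the nuclei with 4 copies of chromosome 19, chromosome 18 was at 2 copies in all but 1 nucleus of the 2N and 2N+ gates. Among the 6 2N nuclei with 4 copies of chromosome 19, 5 had 2 copies of chromosome 18 (83.3%, 35.9 to 99.6) and among the 40 with 3 copies 15 did (37.5%, 22.7 to 54.2). Both 2N+ nuclei with 4 copies of chromosome 19 had 2 of chromosome 18, as did 4 of the 32 with 3 copies (12.5%, 3.51 to 29), or 6.90% of 29 without the nuclei with more than 60 breakpoints. Read the other way, 4 copies of chromosome 19 were found in 5 of the 21 2N nuclei with chromosome 18 at 2 copies (23.8%, 8.22 to 47.2) and in 1 of 26 with chromosome 18 at 3 (3.85%, 0.0973 to 19.6). The 2N+ counts were 2 of 6 and 0 of 25, and a count of 0 of 25 allows a share of up to 12% by the limit of 3 nuclei and of 13.7% by the exact interval. The intervals overlap within each gate. With both gates joined they were apart, 7 of 8 nuclei (87.5%, 47.3 to 99.7) against 19 of 72 (26.4%, 16.7 to 38.1) for chromosome 18 at 2 copies, but this joins gates whose shares of that state differ.

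The product of the 2 chromosomes' own frequencies gives the number of nuclei a joint state would hold if they were unrelated, and was used as a description only. For 2 copies of chromosome 18 with 4 of chromosome 19 it was 2.68 2N nuclei, where 5 were found, and 0.343 2N+ nuclei, where 2 were found. For 4 copies of chromosome 18 with 2 of chromosome 19 it was 0.114 2N+ nuclei, where 1 was found. For 3 copies of both it was 22.1 and 22.9 nuclei, beside 25 in each gate, and for 3 copies of chromosome 18 with 4 of chromosome 19 it was 3.32 2N nuclei, beside 1. The copies of both chromosomes summed to 6 in 30 of the 47 2N nuclei (63.8%) and in 28 of the 35 2N+ nuclei (80%), where the products gave 24.8 and 23.3 nuclei. Of these nuclei 25 in each gate were those with 3 copies of both.

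The correlation over nuclei was weak in the 2N gate. Pearson's r of the unrounded copies was -0.11 over 47 2N nuclei and -0.51 over 35 2N+ nuclei, and without the nuclei with a residual above 0.15 it was -0.069 and -0.61. Among all 190 pairs of chromosomes 1 to X, r was below 0 in 24.2% of pairs over 2N nuclei and 27.9% over 2N+ nuclei, and the pair 18 and 19 was the tenth and the fifth from the lowest. Spearman's rho of the same values had the opposite sign, 0.24 and 0.11. On whole copies, which take away the order of nuclei within a state, r was -0.20 and -0.54 and rho was -0.21 and -0.54. The points of a gate come from 1 culture, and the 2 values of a nucleus share its multiplier and its centre, so these coefficients have no p-value. Over 2N+ nuclei r rests on the few off the group at 3 copies of both.

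Dividing the level of chromosome 18 by that of chromosome 19 in the same nucleus removes the multiplier, and the quotient fell into the same groups. Over 2N nuclei its median was 0.979 (SD 0.170, n = 47) and it ran from 0.529 to 1.02. It was below 0.6 in 5 nuclei, between 0.6 and 0.9 in 16 and between 0.9 and 1.1 in 26. Over 2N+ nuclei its median was 1.01 (SD 0.232, n = 35) and it ran from 0.534 to 1.87. It was below 0.6 in 2 nuclei, between 0.6 and 0.9 in 4, between 0.9 and 1.1 in 25 and above 1.1 in 4. The median over the 15 2N nuclei with 2 and 3 copies was 0.705, with a range of 0.669 to 0.745. Over the 5 with 2 and 4 copies it was 0.547, from 0.529 to 0.565, so these groups did not overlap. The ratios above 1.1 were 1.31, 1.29 and 1.30 in 2N+ nuclei 17, 29 and 30, and 1.87 in 2N+ nucleus 12.

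**Figure D2:**
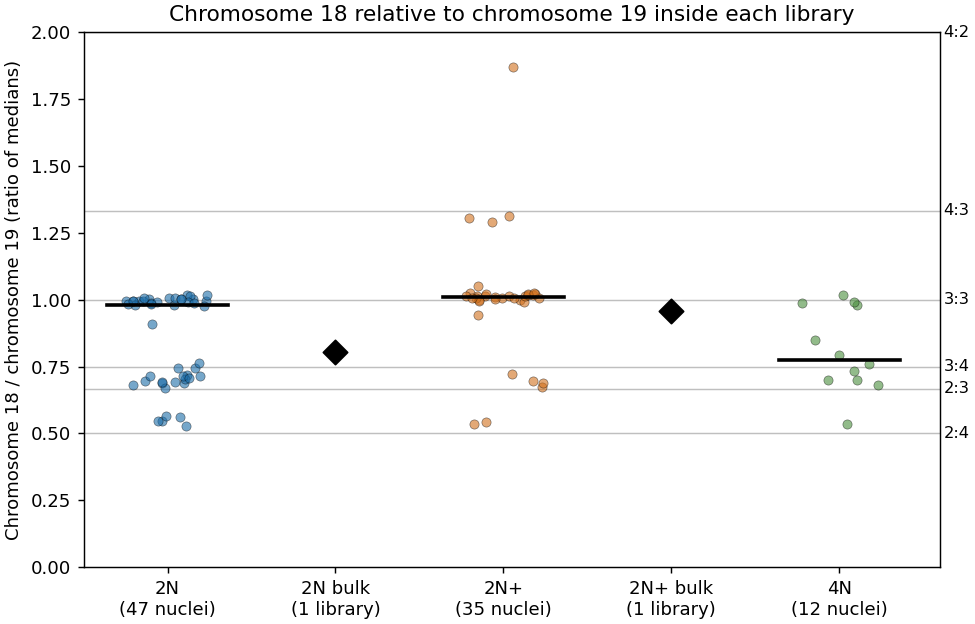
Ratio of the median of chromosome 18 to the median of chromosome 19 inside each library (y axis, no unit) by gate and for both bulk libraries (x axis). Circles are nuclei, black bars their medians, diamonds the bulk libraries, and grey lines the exact quotients of whole copies. The 2N ratios form a group near 1 with 26 nuclei, a group of 16 between 0.6 and 0.9 and a group of 5 below 0.6, and 4 2N+ nuclei lie above 1.1.

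Both chromosomes kept closer company with others than with each other in the 2N gate. Over 47 nuclei, chromosome 18 had its highest r, 0.56, with chromosome 1, the eighth highest of the 190 pairs. Chromosome 19 had its highest r with chromosome 5 (0.72, the second highest of all pairs) and with chromosome 2 (0.66, the fourth). Over 35 2N+ nuclei the highest r of chromosome 18 was 0.52, with chromosome 16.

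Nuclei of the 2N gate with 2 copies of chromosome 18 mostly had 2 copies of chromosomes 1 and 2 as well. Chromosome 1 was at 2 copies in 14 of 21 nuclei with chromosome 18 at 2 (66.7%, 43 to 85.4) and in 3 of 26 with chromosome 18 at 3 (11.5%, 2.45 to 30.2). Chromosome 2 was at 2 copies in 15 of 21 (71.4%, 47.8 to 88.7) and in 3 of 26 (11.5%, 2.45 to 30.2). For both chromosomes the intervals were apart, which covers counting error only, and the state was looked at after earlier results of these data were known. The mean of chromosome 1 was 2.20 copies (SD 0.311) in the 15 nuclei with 2 and 3 copies of chromosomes 18 and 19, and 2.90 (SD 0.272) in the 25 with 3 of both. The mean of chromosome 2 was 2.18 (SD 0.235) and 2.89 (SD 0.378) in the same nuclei. Chromosome 15 was lower by less, 2.02 (SD 0.0146) against 2.31 (SD 0.402). In each comparison the ranges of the groups overlapped. The number of breakpoints was alike, 16.6 (SD 6.50) and 16.5 (SD 7.76).

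A few whole-chromosome sets accounted for most nuclei. Taking chromosomes 1, 2, 18 and 19 in this order, 12 of 47 2N nuclei had 2, 2, 2 and 3 copies, 19 had 3 copies of each, and 5 had 3, 4, 2 and 4. Of the 2N+ nuclei, 14 of 35 had 3 copies of each, 7 had 3, 4, 3 and 3, 3 nuclei had 2, 2, 2 and 3, and 2 had 3, 4, 2 and 4. Nuclei with 2 copies of chromosome 18 thus came in forms that differ in chromosomes 1, 2 and 19. Chromosomes 1 and 2 did not always go together in them. The set was 3, 2, 2 and 3 in 2 2N nuclei, 2, 3, 2 and 3 in 1 2N nucleus, and 4, 3, 2 and 3 in 1 2N+ nucleus.

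The 5 nuclei of the 2N gate with 2 copies of chromosome 18 and 4 of chromosome 19 had the same whole copies of chromosomes 1 to 17 but not of X. Chromosome 2 had a mean of 3.84 copies (SD 0.0923, from 3.69 to 3.93), chromosome 5 of 2.93 (SD 0.0252, from 2.90 to 2.96) and chromosome 15 of 2.93 (SD 0.0821, from 2.86 to 3.07). In the 15 nuclei with 2 and 3 copies these chromosomes had means of 2.18 (SD 0.235), 2.02 (SD 0.0236) and 2.02 (SD 0.0146), with no overlap in any of them. In the 25 nuclei with 3 of both they reached 3.85, 3.05 and 2.96 copies, so those ranges did overlap. Among these 25, 2N nucleus 29 had 3.85, 3.05 and 2.90 copies of the same chromosomes. Chromosome X was at 1.08, 1.11 and 1.07 copies in 2N nuclei 6, 7 and 39 and at 2.08 and 2.04 in 2N nuclei 11 and 18. The multiplier was 2.55 in all 5 nuclei and 2.20 to 2.30 in the 15. Both 2N+ nuclei with 2 and 4 copies were also high in chromosome 2, at 3.91 and 3.99 copies, and chromosome 5, at 2.96 and 2.97. Such levels were frequent in that gate. Of the 25 2N+ nuclei with 3 of both, 8 had 4 or more copies of chromosome 2 and 11 had 3 of chromosome 5. In these 2 2N+ nuclei chromosome 16 was at 2.02 and 2.05 copies. Their chromosome 3 was at 4.04 and 4.11, beside a mean of 3.06 in the 5 2N nuclei.

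The 4 2N+ nuclei with 2 and 3 copies had low means of several chromosomes. Chromosome 2 had a mean of 2.36 copies (SD 0.453, n = 4) against 3.30 (SD 0.420, n = 25) in the nuclei with 3 of both. Chromosome X had 1.12 (SD 0.0299) against 1.88 (SD 0.426), and chromosome 16 had 2.10 (SD 0.102) against 2.83 (SD 0.527). The ranges overlapped in all 3 chromosomes. The 4 nuclei were not alike. Chromosome 2 was at 3.02 copies in 2N+ nucleus 20 and at 2.29, 2.09 and 2.03 in 2N+ nuclei 22, 24 and 25. 2N+ nucleus 20 also had 4.05 copies of chromosome 3 and 3.01 of chromosome 15. The mean number of breakpoints was 56 (SD 38.8) in these 4 nuclei and 20.9 (SD 12.2) in the 25, and its part in the result was not tested.

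Some nuclei in rare joint states had copies of other chromosomes that were frequent in their gate, and others did not. 2N nucleus 5, with 2 copies of both, had 2.05 copies of chromosome 1, 1.94 of chromosome 2 and 3.0 of chromosome 3. 2N nucleus 47, with 3 and 4 copies, had 2.09 copies of chromosome 1 and 3.83 of chromosome 12, which was at 2 or 3 copies in the other 2N nuclei. 2N+ nucleus 12, with 4 and 2, had 3.92 copies of chromosome 3, 2.96 of chromosome 16 and 2.02 of chromosome X. Among the 3 nuclei with 4 and 3 copies, chromosome 16 was at 2.94 in 2N+ nucleus 17, at 2.09 in 2N+ nucleus 29 and at 4.65 in 2N+ nucleus 30, whose residual was 0.164. 2N+ nuclei 12, 17 and 29 had the same whole copies of chromosomes 1, 2, 3, 5, 12 and 15, while 2N+ nucleus 30 differed from them in chromosomes 2, 3 and 15. Of the 3 nuclei with 4 and 3 copies, 1 had 1.20 copies of chromosome 8, beside 2.86 to 3.05 in the 25 2N+ nuclei with 3 of both. Chromosomes 6 and 11 were at 4 or more copies, 9 at 1 or fewer, 14 at 3 and 17 at 2 in 1 of the 3 nuclei each. Of the 25 nuclei, 0 had such copies of chromosomes 6, 9 and 17, 1 of chromosome 11 and 2 of chromosome 14.

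**Figure D3:**
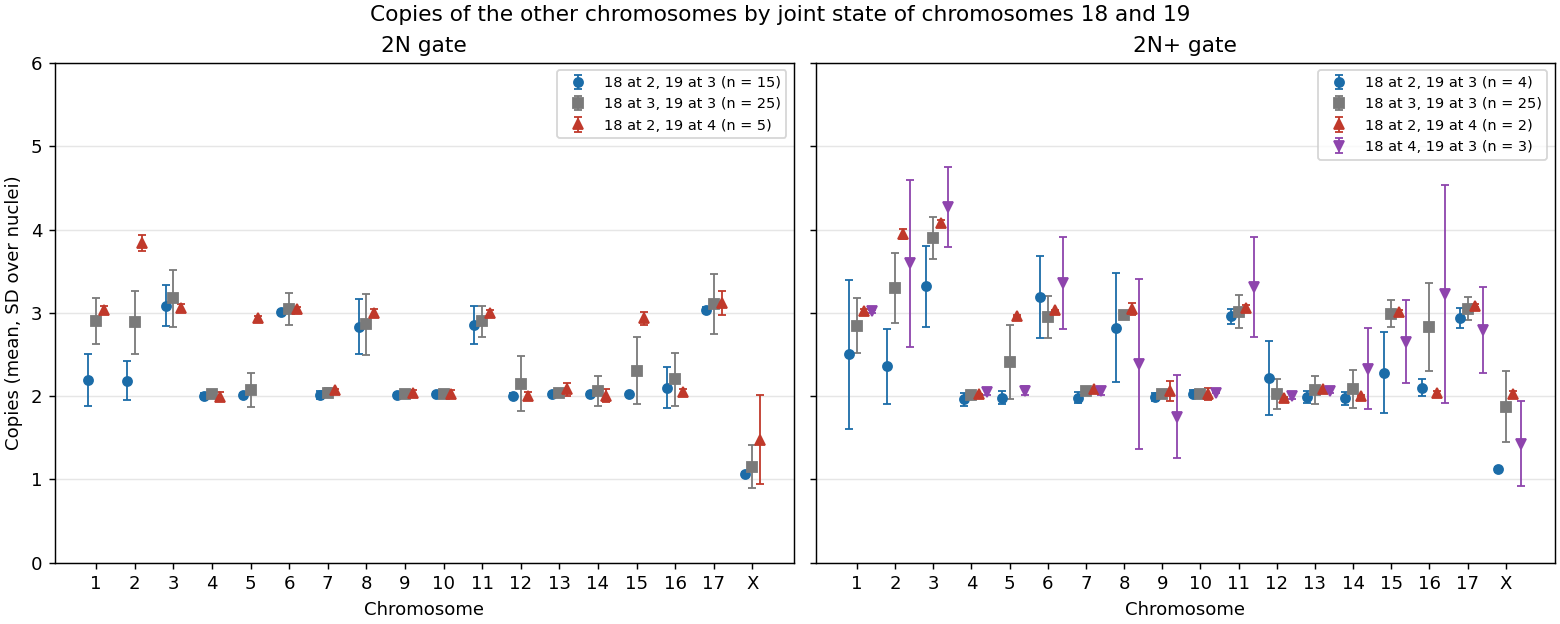
Mean copies of chromosomes 1 to 17 and X (x axis) by joint state of chromosomes 18 and 19 (colours), for the 2N and the 2N+ gate, with copies on the y axis and error bars of 1 SD over nuclei. The 2N nuclei with 2 and 3 copies lie near 2.20 copies of chromosome 1 and 2.18 of chromosome 2, and the 5 nuclei with 2 and 4 copies lie at 3.84 copies of chromosome 2.

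In the 4N gate the copies depend on the multiplier, because a ratio does not show whether a whole genome was doubled. 4N nuclei 3, 4 and 5 had multipliers of 4.65, 4.65 and 4.70. With these, chromosome 18 was at 4.06, 4.14 and 4.98 copies and chromosome 19 at 5.95, 5.93 and 5.86. 4N nuclei 6, 7, 8 and 9 had 3 copies of both chromosomes, 4N nuclei 1, 10 and 12 had 2 and 3, and 4N nucleus 11 had 2.06 and 3.87. 4N nucleus 2 was at 3.35 and 4.40 copies, off whole numbers, with a residual of 0.206, and 4N nuclei 1 and 12 had residuals of 0.196 and 0.181. Without the nuclei with a residual above 0.15, 1 nucleus was left with 2 and 3 copies. The mean was 3.07 copies of chromosome 18 (SD 0.924, n = 12) and 3.89 of chromosome 19 (SD 1.31, n = 12).

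Set against chromosomes 4, 7, 9, 10 and 13 taken as 2 copies, most but not all of these nuclei came close to the states of the other gates. 4N nuclei 3 and 4 were then at 2.01 and 2.04 copies of chromosome 18 and 2.94 and 2.92 of chromosome 19. 4N nuclei 6, 7, 8 and 9 were at 2.93, 2.89, 2.87 and 2.82 copies of chromosome 18 and 2.88, 2.95, 2.90 and 2.84 of chromosome 19. 4N nucleus 10 was at 2.00 and 2.86, and 4N nucleus 11 at 2.03 and 3.80. 4N nucleus 5 was at 2.47 and 2.91, between the states. 4N nuclei 1, 2 and 12 were also off whole copies, with 2.31, 2.30 and 2.25 of chromosome 18 beside 2.92, 3.03 and 3.06 of chromosome 19. The correlation of both chromosomes was 0.84 over 12 nuclei with the fitted multipliers and -0.38 with this scale. With fitted multipliers 0% of the 190 pairs were below 0 in this gate. Chromosome 18 divided by chromosome 19, free of the multiplier, had a median of 0.776 (SD 0.155, n = 12) and ran from 0.534 in 4N nucleus 11 to 1.02 in 4N nucleus 6. 4N nucleus 11, like the 2N nuclei with 2 and 4 copies, had 3 copies of chromosomes 5 and 15 (2.90 and 2.95), but 3.0 copies of chromosome 2. 4N nucleus 8, with 3 copies of chromosomes 18 and 19, also had 3 of chromosomes 5 and 15 (2.87 and 2.94).

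Most nuclei held each chromosome at a single level. Chromosome 18 had 1 level from end to end in 79 of 94 nuclei and chromosome 19 in 79 of 94 as well. A partial change was counted where at least 5 bins in a row lay 0.5 copies or more from the chromosome's longest stretch. Chromosome 18 had one in 3 of 47 2N nuclei (6.38%, 1.34 to 17.5), 3 of 35 2N+ nuclei (8.57%, 1.80 to 23.1) and 3 of 12 4N nuclei (25%, 5.49 to 57.2). Chromosome 19 had one in 1 of 47 (2.13%, 0.0539 to 11.3), 3 of 35 (8.57%, or 3.12% of 32 without the nuclei with more than 60 breakpoints) and 3 of 12 nuclei (25%). Over all autosomes of the same nuclei the share was 22.4%, 23.5% and 36%. Chromosomes 5, 2, 8 and 16 had the most, with a partial change in 94, 89, 65 and 43 of the 94 nuclei. Chromosome 18 had one in 9 nuclei and chromosome 19 in 7, beside a median of 9 over the autosomes. Per 100 bins, 5.06 nuclei had a partial change of chromosome 18 and 5.88 of chromosome 19, beside a median of 4.91. By count and per length the pair was thus near the middle of the autosomes. The shares depend on the limits. On chromosome 18 the 2N share was 2.13% with at least 0.7 copies or 10 bins, and the 2N+ share was 14.3% with at least 0.3 copies. On chromosome 19 the 2N share was 10.6% with at least 0.3 copies, and the 4N share was 8.33% with at least 10 bins.

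The longest partial changes of chromosome 18 were gains that came in pairs of nuclei. In 2N nucleus 14 and 4N nucleus 6 the chromosome was near 3 copies up to 72929430 and higher from 72929431. There 2N nucleus 14 had 3.73 copies over 33 bins, up to 89053308, and then 3.21 in the last 3 bins, while 4N nucleus 6 had 3.74 copies over all 36 bins to the end. In 2N+ nuclei 8 and 19 a stretch of 32 bins from 53883071 to 69063483 was at 3.66 and 3.72 copies, with the same first and last bin in both. The stretches of both pairs do not overlap. 2N nucleus 14 and 4N nucleus 6 also had the same whole copies of all 18 other chromosomes from 1 to X and shared 6 breakpoints there. 2N+ nuclei 8 and 19 had the same copies of 17 of 18, differing in chromosome 6, and shared 3 breakpoints. Over all 4371 pairs of nuclei the median was 14 chromosomes alike and 2 shared breakpoints.

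The other partial changes of chromosome 18 were found once each. 4N nucleus 3, at 4.06 copies in the middle, had 3.14 copies in the first 7 bins and 3.10 in the last 17, from 82032071. In 2N nucleus 38 the 8 bins from 5191518 to 9461593 were at 3.52 copies, and in 2N nucleus 7 the 5 bins from 84413196 to 86948626 at 1.52. In 2N+ nucleus 31, which had 72 breakpoints, the 5 bins from 34848943 to 37209269 were at 4.09 copies. 4N nucleus 9, which had 112 breakpoints, had 8 levels along chromosome 18, among them 2.01 copies from 15415074 to 19564685 and 3.72 copies in the last 7 bins. The smallest of these departures, 0.54 copies in 2N nucleus 38, was just inside the limit of 0.5. Just outside it, 2N+ nucleus 24 had its first 28 bins 0.38 copies lower, and 4N nucleus 7 had a drop to 1.94 copies over only 3 bins, from 71496001 to 72929430.

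On chromosome 19 several of the partial changes were at the far end or in a narrow stretch before it. 2N nucleus 27 had 3.82 copies in the last 12 bins, from 55724103, beside 3.02 before. Losses of the far end were found in 2N+ nucleus 25, with 2.41 copies from 56175216, and in 2N+ nucleus 24, with 2.15 copies from 58039367. In 2N+ nucleus 22, 13 bins from 21577723, 14 bins from 46240790 and the last 6 bins from 58486587 were at 2.35, 2.59 and 2.14 copies. A narrow stretch was lower in 3 nuclei of the 4N gate. It was at 1.94 copies from 48542065 to 52451660 in 4N nucleus 7, at 1.95 from 48995823 to 52451660 in 4N nucleus 9 and at 1.78 from 49502944 to 51953182 in 4N nucleus 10. 4N nucleus 9 also had 3.46 copies from 10688940 to 22542946. 4N nuclei 7, 9 and 10 had 70, 112 and 82 breakpoints in their genomes, and without the nuclei with more than 60 breakpoints no partial change of chromosome 19 was left in the 4N gate.

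**Figure D4:**
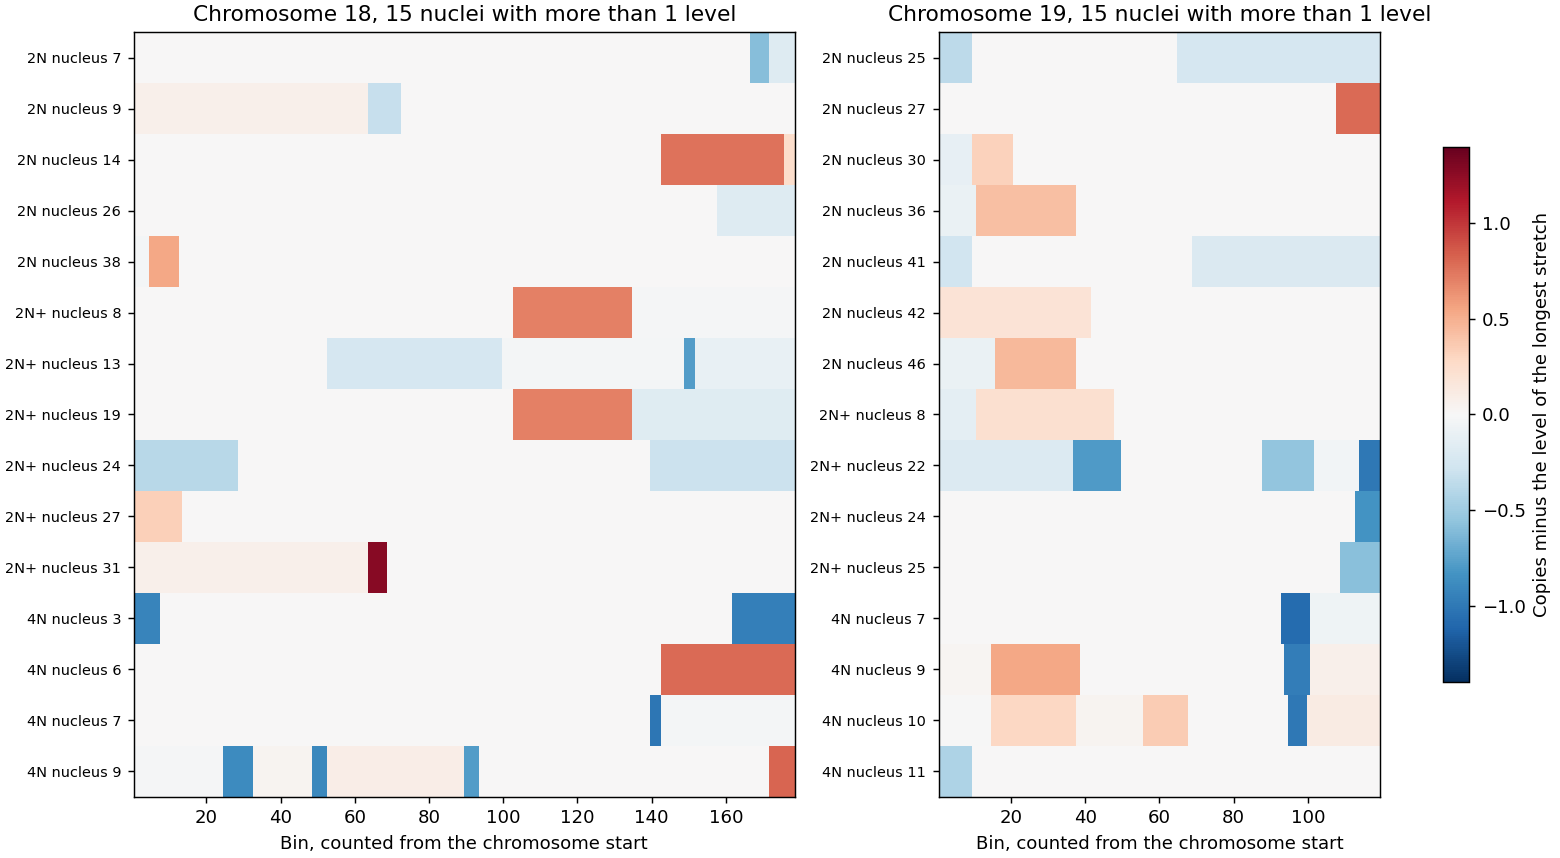
Copies along chromosomes 18 and 19 in the nuclei with more than 1 level, 1 line per nucleus, over the bins counted from the chromosome start (x axis), with the colour giving the difference in copies from the longest stretch of that chromosome. On chromosome 18 the gains of 2N nucleus 14 and 4N nucleus 6 begin at the same bin, and those of 2N+ nuclei 8 and 19 share both ends. On chromosome 19 the low stretches of 4N nuclei 7, 9 and 10 overlap.

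Few breakpoints recurred. A breakpoint is here a step of at least 0.5 copies between neighbouring bins, and steps within 3 bins of each other were taken as 1 position. Only the numbers of breakpoints per nucleus, such as the limit of 60, count steps of any size. Both chromosomes held 27 positions, of which 10 recurred in at least 2 nuclei and 3 in at least 3. The 3 were from 71496001 to 72929431 on chromosome 18 (2N nucleus 14, 4N nuclei 6 and 7), from 48542065 to 49502944 on chromosome 19 (4N nuclei 7, 9 and 10), and from 51953183 to 52943184 on chromosome 19 (2N+ nucleus 22 and the same 3 nuclei of the 4N gate). All 3 include nuclei with more than 60 breakpoints, and without those nuclei none was found in 3 or more. At the exact bin 4 of 38 positions were found in 2 or more nuclei, while over all autosomes the share was 23.8%, 142 of 597. In 3 or more nuclei 1 of 38 was found, beside 54 of 597 over all autosomes. The autosomes were counted at the exact bin only, so the 10 of 27 positions matched within 3 bins have no such share beside them.

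The bulk libraries can be set beside the mean of the single nuclei. The 2N bulk ratio to the genome was 1.03 for chromosome 18, beside a mean of 1.08 over nuclei (SD 0.170, n = 47), and 1.28 for chromosome 19, beside 1.29 (SD 0.116). The 2N+ bulk ratio was 1.15 for chromosome 18, beside 1.16 (SD 0.181, n = 35), and 1.20 for chromosome 19, beside 1.19 (SD 0.112). The ratio of chromosome 18 to chromosome 19 was 0.805 in the 2N bulk and 0.957 in the 2N+ bulk, beside means of 0.847 (SD 0.173) and 0.998 (SD 0.232) over nuclei. The median absolute difference between bulk and nuclei over chromosomes 1 to X was 0.00953 for 2N and 0.00724 for 2N+. Chromosomes 18 and 19 differed by more in both gates, by -0.0499 and -0.0132 for 2N and by -0.0114 and 0.0165 for 2N+. There is 1 bulk library per gate, so the error of a bulk value is unknown.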

How the data were processed

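The data were whole-genome sequencing libraries of sorted nuclei, amplified with the SeqXE kit per the labels' protocols. The submitters' processing notes name Bowtie 1.0 and build mm9. For binning, GC correction, duplicate handling and segmentation, the method was not given in the sources used here. What the authors deposited are linear ratios, not counts: each library's mean over bins was close to 1 and values were flat over stretches. Depth is therefore unknown, and smoothing hides short changes.

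Of 4906 bins, 4898 whose median over nuclei lay within 0.25 and 4 entered. Multipliers between 1.5 and 6 were tried at intervals of 0.05, and the one that left the least mean squared deviation of a nucleus' autosomal bins from whole numbers was taken. The states are copies rounded to whole numbers. Functions were tested on simulated data. No test between groups was run, since nuclei of 1 culture are not replicates. The numbers of nuclei only name them. Named features were both chromosomes, nuclei with a partial change or in a joint state held by 3 or fewer, breakpoints in 3 or more nuclei, and the 3 chromosomes that differed most between joint states. Chromosomes 3, 12, 15 and 16 of single nuclei and the nuclei in more frequent states were picked out once values were known. So were chromosomes 6, 9, 11, 14 and 17 of the nuclei with 4 and 3 copies. The members, lists and settings were chosen with earlier results of these data known. Genes were matched by symbol to the RefSeq table, whose coordinates were not used. Scripts ran in Python 3.11.15 with scipy 1.17.1, numpy 2.4.6, matplotlib 3.10.9 and pandas 2.3.3.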

Additional observations from a re-analysis of the deposited data

How the results depend on the processing

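Recomputing 43 results gave 275 values, of which 254 stayed within the spread or the counting interval, though 16 of these changed by more than 1.5 times. Another 17 moved further and 4 changed sign. With chromosomes 4, 7, 9, 10 and 13 set to 2 copies, 33.3% of 4N nuclei reached 3 copies of chromosome 18 and 8.33% reached 4 of chromosome 19, 7 of them had 2 and 3 copies, and r was -0.62 in the 2N+ and -0.38 in the 4N gate. With the multiplier limited to 2 to 3, the 4N share of chromosome 19 was 8.33%, 6 nuclei had 2 and 3 copies and r was -0.026. Under both scales the 1 remaining 4N nucleus with 4 copies of chromosome 19 had 2 of chromosome 18 (100%, beside 20% of 5). Spearman's rho was 0.24 in the 2N and 0.11 in the 2N+ gate, an alternative added after seeing the data. Of the 4N nuclei with 2 and 3 copies 1 was left with both chromosomes within 0.2 of a whole number, and 1 without residuals above 0.15. Without nuclei with more than 60 breakpoints, 2 2N+ nuclei had 2 and 3 copies, 2 4N nuclei had 3 and 3, 0 and 5 breakpoint positions recurred in 3 and in 2 or more nuclei, and the 4N share with a partial change of chromosome 19 was 0%. At the exact bin 1 and 4 positions recurred. No paired analysis was possible because an index number ties no nucleus to another gate's nucleus and no model was fitted. Under the limited multiplier 41.7% of 4N nuclei reached 3 copies of chromosome 18, and 2 copies of chromosome 18 beside 3 of chromosome 19 went from 42.9% to 20% of the 4N nuclei with 3 of chromosome 19 without residuals above 0.15. Unknown depth leaves the noise of a bin unmeasured.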

Other observations

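Chromosome 19 also had small steps, most of them below the limit of 0.5 copies, that were found at the same bin in several nuclei, a pattern looked for after the data were seen. A step up at 7558870, of 0.27 to 0.44 copies, was found in 2N nuclei 25, 30 and 41 and 4N nucleus 11. A step up at 8263952, of 0.51 copies in 2N nucleus 36 and 0.36 in 2N+ nucleus 8, was found in these 2 nuclei, and a step down at 22079766 in 2N nuclei 36 and 46 and 4N nucleus 10. Before the step down the level was 3.27 copies in 2N nucleus 36, from 8263952, and 3.41 in 2N nucleus 46, from 11155736, so neither reached the next whole number.

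Chromosome 19 had more than 1 level in 6 of 21 nuclei of the 2N gate with chromosome 18 at 2 copies (28.6%, 11.3 to 52.2) and in 1 of 26 with chromosome 18 at 3 (3.85%, 0.0973 to 19.6). In the 2N+ gate the counts were 3 of 6 (50%, 11.8 to 88.2) and 1 of 25 (4%, 0.101 to 20.4), and 2 of the 3 nuclei with chromosome 18 at 2 copies, 2N+ nuclei 22 and 24, had more than 60 breakpoints. The intervals overlapped in each gate. Whether the multiplier or the segmentation bears on these small steps was not tested.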
